A study of Homo sapiens with 6 samples.

Results

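Glycolysis, the pentose phosphate pathway and the gluconeogenic enzyme FBP1 were examined as 43 genes of glucose use, picked out by gene name from the 25940 gene names on the arrays, with every probe of each. They cover glucose and lactate carriers, every step from glucose to lactate, and 3 enzymes of the pentose phosphate pathway. Also covered are PDHA1 and PDHB of the pyruvate dehydrogenase complex, the kinases of that complex, and the gluconeogenic enzymes FBP1 and PCK2. The 43 genes had 54 probes, with 1 probe for 32 genes and 2 probes for 11.

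The arrays compared a pair of lines that both derive from T47D, an estrogen receptor-positive human breast cancer cell line, through tumors that its T47Dco subline formed in mice. pLUM came from a tumor grown with estradiol (E), was sorted for claudin 3 without CD49f, and had received 1 nM E for 72 h. pLB came from a tumor grown with E and progesterone, was sorted for CD49f without claudin 3, and was kept under estrogen withdrawal (EWD). RNA of 3 sorts of each line was profiled, so that line and hormone cannot be told apart on these 6 arrays, and each line stands for a single derivation. Cells were also stained and sorted for cytokeratin 5 before RNA was extracted, and which fraction was hybridized is not given in the sources used here. Nothing says that the 3 sorts came from separate cultures, so p-values measure the spread between these sorts only. Replicates 1 to 3 of pLUM and replicate 1 of pLB shared slide 1, whereas replicates 2 and 3 of pLB were on slide 2.

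The labels were checked against markers. All 8 luminobasal markers were higher in pLB, led by the basal keratin KRT5, which was at least 1750-fold higher. Of 8 luminal markers, 7 were lower by at least 2-fold. The exception, KRT18, was 1.54-fold lower, with no overlap of the arrays (limma adjusted p = 0.011). Of 7 fibroblast markers, COL3A1, PDGFRA, PDGFRB, LUM and DCN were well above background on no array, COL1A1 was not called, and COL1A2 was at least 11.5-fold higher in pLB. Of the immune cell markers, 5 were tested and CD68 was higher. Of the endothelial markers, 2 were tested and VWF was higher, by at least 1.8-fold. Of the muscle markers, 3 were tested and none was called, while CKM was well above background on no array. In units of the 75th percentile of an array, the summed signal of the 7 fibroblast markers was 0.771 to 0.971 in pLUM and 0.790 to 1.15 in pLB, that of the 6 immune cell markers 0.487 to 0.630 and 0.462 to 0.595, that of the 4 endothelial markers 0.0729 to 0.108 and 0.0938 to 0.206, and that of the 4 muscle markers 0.227 to 0.274 and 0.208 to 0.413. The summed signals of all 4 lists therefore overlapped between the lines, and the part of such cells in the results was not tested. A sum follows its brightest genes, here COL1A1 for the fibroblast list, and hides that COL1A2 differed.

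Glycolysis splits glucose into pyruvate in the cytosol. Lactate dehydrogenase turns pyruvate into lactate, which leaves the cell through monocarboxylate carriers, whereas pyruvate dehydrogenase sends it into mitochondrial oxidation unless pyruvate dehydrogenase kinases block the complex. The pentose phosphate pathway branches off at glucose 6-phosphate and supplies NADPH and ribose. FBP1 removes the phosphate that phosphofructokinase adds and so runs against glycolysis, and its loss has been described in basal-like breast cancer cells. Many of these steps are served by several isozymes, among them muscle forms of phosphoglycerate mutase (PGAM2) and enolase (ENO3) beside the widespread forms PGAM1 and ENO1.

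The isozymes were read by separate probes of 60 bases. The probes of both mutases and both enolases are shown because these pairs moved in opposite directions and their coding sequences are related. Each is written 5′ to 3′, with the longest run of bases that both probes of a pair share in capitals.
PGAM1 (hg19 chr10:99190177-99190236, plus strand): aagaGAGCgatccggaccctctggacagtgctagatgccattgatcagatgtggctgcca
PGAM2 (hg19 chr7:44102412-44102471, minus strand): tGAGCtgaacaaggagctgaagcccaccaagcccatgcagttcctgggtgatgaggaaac
ENO1 (hg19 chr1:8924054-8924113, minus strand): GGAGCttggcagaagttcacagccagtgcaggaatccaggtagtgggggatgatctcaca
ENO3 (hg19 chr17:4860149-4860296, plus strand): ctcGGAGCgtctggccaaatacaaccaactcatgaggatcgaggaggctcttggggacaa
The longest shared run was 4 bases for the mutase probes and 5 bases for the enolase probes, and at best 21 of 60 positions were identical when either pair was slid along each other without gaps. Probes were compared with each other and not with the transcript of the other isozyme. Whether a probe also binds the transcript of the other isozyme was therefore not tested. The PGAM1 probe shown is the dimmer of its 2 probes, and the ENO3 probe spans 148 bases of genome, so that it crosses a splice junction.

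Both LDHA probes are shown because the files place them on different chromosomes, with the longest run they share, 6 bases, in capitals.
LDHA, first probe (hg19 chr11:18428789-18428848, plus strand): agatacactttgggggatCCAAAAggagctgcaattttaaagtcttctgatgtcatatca
LDHA, other probe (hg19 chr9:14921817-14921876, minus strand): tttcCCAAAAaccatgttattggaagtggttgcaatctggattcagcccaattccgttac
The position on chromosome 9 lies away from the gene on chromosome 11, so that the value of this probe is uncertain as a value of LDHA.

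Because LDHA and PGK1 are textbook targets of hypoxia-inducible factor, the 250 bases before their annotated start are shown beside those of FBP1 (RefSeq, GRCh38.p14), with each ACGTG or GCGTG, the core of a hypoxia response element, in capitals on either strand.
LDHA (chr11:18394313-18394562, plus strand): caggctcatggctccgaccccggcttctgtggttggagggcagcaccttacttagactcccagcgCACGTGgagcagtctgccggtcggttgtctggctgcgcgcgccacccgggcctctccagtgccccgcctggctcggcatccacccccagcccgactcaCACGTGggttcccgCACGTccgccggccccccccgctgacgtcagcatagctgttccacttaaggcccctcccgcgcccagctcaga
PGK1 (chrX:78103998-78104247, plus strand): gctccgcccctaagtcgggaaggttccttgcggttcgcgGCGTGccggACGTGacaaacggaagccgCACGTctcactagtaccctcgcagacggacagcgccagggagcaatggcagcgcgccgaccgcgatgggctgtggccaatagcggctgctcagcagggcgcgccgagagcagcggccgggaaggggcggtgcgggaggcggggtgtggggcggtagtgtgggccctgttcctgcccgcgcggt
FBP1 (chr9:94639519-94639768, minus strand): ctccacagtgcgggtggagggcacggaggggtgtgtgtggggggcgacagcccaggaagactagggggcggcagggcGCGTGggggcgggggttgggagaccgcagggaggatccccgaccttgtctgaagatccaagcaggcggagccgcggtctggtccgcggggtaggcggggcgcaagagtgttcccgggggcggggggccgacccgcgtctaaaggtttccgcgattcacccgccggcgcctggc
LDHA held 5 matches, PGK1 held 3 and FBP1 held 1, where the palindrome CACGTG counts as a match on each strand. Of the 43 genes, 39 had an entry in the promoter table, and 21 of these, or 53.8%, held the core, against 43.2% of all 35116 promoters. For the 39 genes 1 promoter per gene was kept, whereas the 35116 are all entries, so that the sets are not alike. The share was 9 of 18 among genes called higher in pLB, 4 of 4 among genes called lower and 8 of 13 among tested genes that were not called, and 0 of 4 among genes that were not tested. The E-box CAGGTG, searched on both strands, was found in 6 of the 39, or 15.4%, against 17.5% of all promoters. These matches describe letters only, and no binding was measured.

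Signals are given as log2 of the deposited intensity relative to the 75th percentile of its array, so that 0 is a probe at that percentile and a difference of 1 is 2-fold. A gene was tested if a probe was well above background on at least 3 of the 6 arrays, and was called at a difference of at least 2-fold with a Benjamini-Hochberg adjusted p under 0.05 in limma, fitted over 23105 probes. A gene is represented by its tested probe with the highest mean, and levels of different probes are not compared.

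More of these genes were called higher than lower in pLB. Of the 43 genes, 38 were tested, of which 19 were higher in pLB and 5 were lower. The 24 called genes make 63.2% of those tested, where 45.7% of all 17670 tested genes were called, 22.7% higher and 23.0% lower. The shares of the 38 genes were 50% higher and 13.2% lower. The median log2 difference, pLB minus pLUM, was 1.23 (quartiles 0.14 and 1.91), against 0.04 (quartiles -0.93 and 0.92) over all tested genes. With an adjusted p under 0.05 and no fold threshold, 24 were higher and 6 were lower, or 78.9%, where 63.4% of all genes passed. The arrays of the lines did not overlap for 31 of the 38 genes, or 81.6%, against 69.1% of all genes, and 12 genes were called at 4-fold or more where 19.3% of all genes were. The 43 genes were grouped as a pathway with results of these data known, and the counts are descriptions. SLC2A3, SLC2A12, HK3, PFKFB1 and PDK4 were not tested, as no probe of theirs was well above background on enough arrays. By probe, 47 of 54 were tested, 25 were higher and 7 lower, where 45.6% of all 23105 tested probes were called, 21.9% higher and 23.7% lower. In RNA of many cells, fewer cells with a transcript and less of it per cell cannot be told apart.

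**Figure D1:**
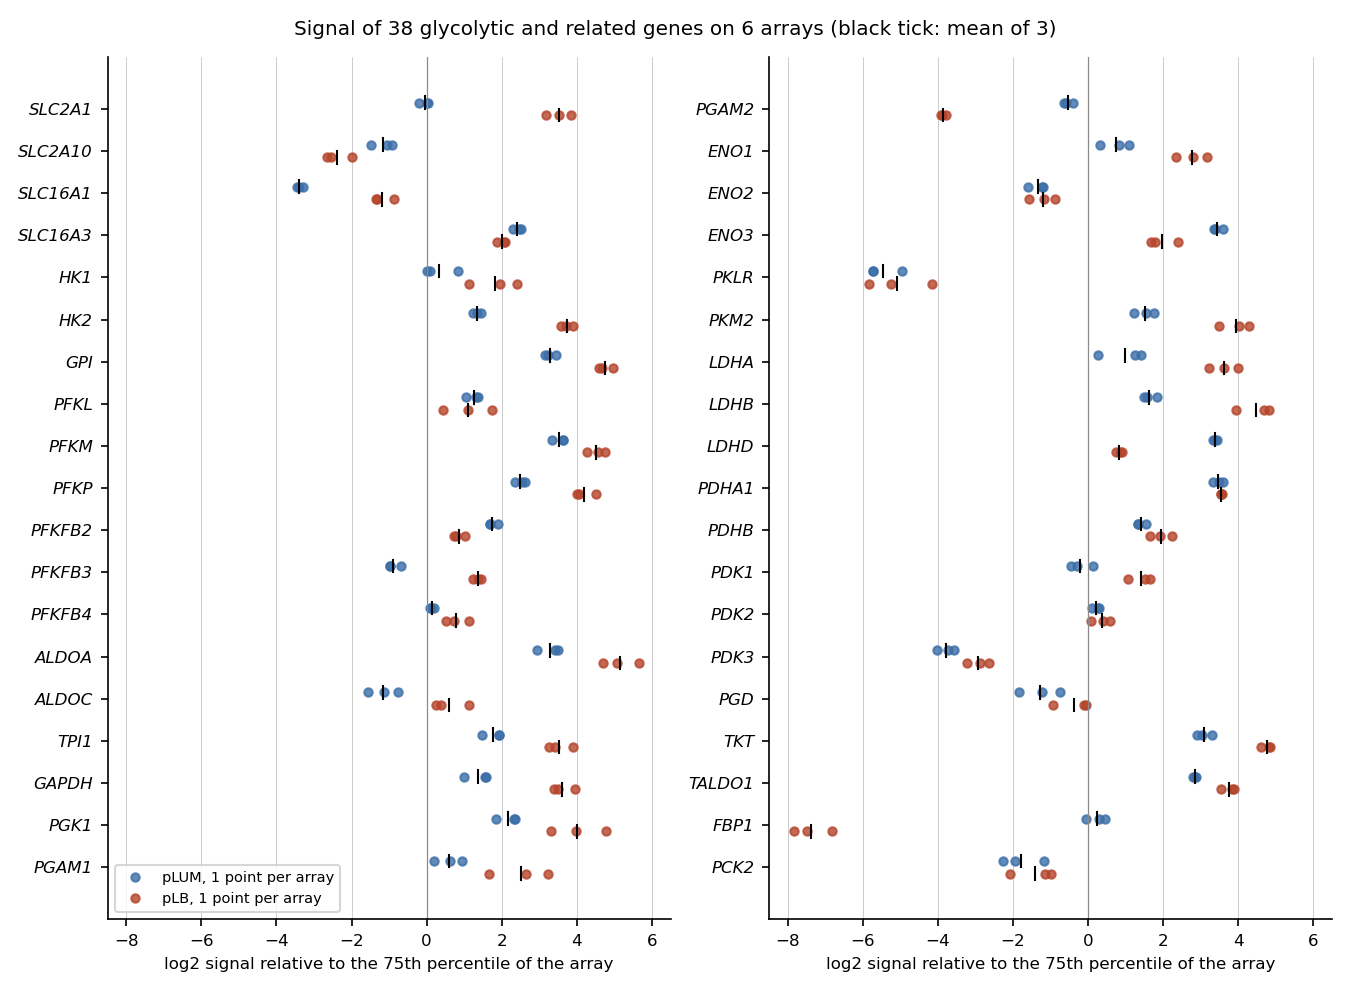
Log2 signal of the 38 tested genes relative to the 75th percentile of the array (horizontal axis), with 1 point for each array of pLUM (blue) and pLB (red) and a black tick at the mean of 3. The pLB points lie to the right of all pLUM points for 24 genes and to the left for 7, with FBP1 between -7.83 and -6.83 in pLB.

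All 19 genes called higher were lowest on pLUM replicate 1 among the pLUM arrays and highest on pLB replicate 1 among the pLB arrays. Among all genes called higher, 35.4% were lowest on pLUM replicate 1 and 47.2% were highest on pLB replicate 1. pLUM replicate 1 had the lowest 75th percentile of its line, 474 against 562 and 566, and pLB replicate 1 the highest, 869 against 696 and 449. The part of these arrays in the result was not tested beyond leaving them out. Without both arrays, 18 genes were higher and 5 lower, the median was 1.00, and HK1 was no longer called.

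Carriers were considered first. SLC2A1, or GLUT1, the glucose carrier of most cultured cells, stood at -0.19, 0.01 and 0.03 on the pLUM arrays and at 3.84, 3.54 and 3.19 on the pLB arrays. All pLB arrays were far above all pLUM arrays, a log2 difference of 3.57 ± 0.21 (SE, n = 3 per line), or 11.9-fold (limma adjusted p = 9.3e-06). A dimmer SLC2A1 probe, for the transcript ENST00000372500, was well above background on 1 pLUM and 2 pLB arrays and did not differ beyond its spread (0.34 ± 0.31), so that the mean of both SLC2A1 probes gave 1.96. SLC2A10, another hexose carrier, was at -1.06, -0.92 and -1.48 in pLUM and at -2.55, -2.65 and -1.99 in pLB. It was 2.36-fold lower in pLB (-1.24 ± 0.25, limma adjusted p = 0.0034), although with scaling to spike-in probes the difference was -0.99 and fell short of 2-fold. SLC2A3, the carrier GLUT3, and SLC2A12 gave no fold, being near background in both lines. For SLC2A3, 1 of 2 probes was well above background on a single pLB array.

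Of the monocarboxylate carriers, SLC16A1 was called and SLC16A3 was not. SLC16A1, or MCT1, which carries lactate and pyruvate, was at -3.45, -3.30 and -3.41 in pLUM and at -0.88, -1.31 and -1.34 in pLB. It was 4.62-fold higher in pLB (2.21 ± 0.19, limma adjusted p = 5.1e-05), and 2.22-fold higher with normexp background correction. That correction handles dim signals differently and was run with an offset of 50 intensity units added to every spot. The offset by itself shrinks the folds of dim probes, here and wherever normexp is given below. SLC16A3, or MCT4, the lactate exporter of glycolytic cells, lay between 2.29 and 2.51 in pLUM and between 1.87 and 2.08 in pLB. The arrays did not overlap, but the difference of -0.41 ± 0.16 missed the threshold (limma adjusted p = 0.054).

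The hexokinases, which phosphorylate glucose and so hold it in the cell, were higher in pLB. HK2, the inducible form of many tumors, was at 1.24, 1.44 and 1.34 in pLUM and at 3.90, 3.57 and 3.72 in pLB. The arrays of each line lay close together and the difference was 5.24-fold (2.39 ± 0.17, limma adjusted p = 2.1e-05). The other HK2 probe was well above background on 0 pLUM and 2 pLB arrays and was at least 1.35-fold higher in pLB. HK1, the widespread form, was at 0.01, 0.10 and 0.85 in pLUM and at 2.42, 1.96 and 1.12 in pLB. It was 2.86-fold higher (1.52 ± 0.37, limma adjusted p = 0.0096), but the lowest pLB array came close to the highest pLUM array. HK3 was well above background on no array. GPI, which turns glucose 6-phosphate into fructose 6-phosphate, was at 3.16, 3.24 and 3.44 in pLUM and at 4.96, 4.60 and 4.68 in pLB, or 2.77-fold higher (1.47 ± 0.18, limma adjusted p = 0.0003).

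Phosphofructokinase, the main point of control, is built from 3 kinds of subunit, of which 1 was called. PFKP, the platelet form, was at 2.35, 2.61 and 2.53 in pLUM and at 4.51, 4.06 and 4.02 in pLB. It was 3.25-fold higher (1.70 ± 0.19, limma adjusted p = 0.00022), and its other probe was also called higher (1.84 ± 0.28). PFKM, the muscle form, lay between 3.35 and 3.64 in pLUM and between 4.27 and 4.75 in pLB, a difference of 0.99 ± 0.19 that passed the p (limma adjusted p = 0.0031) and sat just under 2-fold. PFKL, the liver form, ranged from 1.06 to 1.38 in pLUM and from 0.45 to 1.75 in pLB, so that the arrays overlapped (-0.15 ± 0.32, limma adjusted p = 0.71), and its sign turned under some settings.

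The PFKFB enzymes make and remove fructose 2,6-bisphosphate, the strongest activator of phosphofructokinase. PFKFB3, whose balance favors synthesis, was at -0.98, -0.98 and -0.69 in pLUM and at 1.46, 1.24 and 1.38 in pLB. It was 4.74-fold higher (2.24 ± 0.17, limma adjusted p = 3e-05), and its other probe was called higher as well (1.80 ± 0.33). PFKFB4 lay between 0.10 and 0.21 in pLUM and between 0.51 and 1.12 in pLB, or 1.56-fold higher, past the p alone (0.64 ± 0.20, limma adjusted p = 0.024), a p that PFKFB4 kept under 10 of 19 alternatives. PFKFB2 went the other way, between 1.68 and 1.90 in pLUM and between 0.74 and 1.03 in pLB, which passed the p but not 2-fold (-0.90 ± 0.17, limma adjusted p = 0.0025). Its other probe, for the transcript NM_001018053, was called lower (-2.01 ± 0.30) and was well above background on 3 pLUM arrays and 1 pLB array. PFKFB1, the liver and muscle form, was well above background on no array.

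The 4 genes from aldolase to glyceraldehyde 3-phosphate dehydrogenase were all higher in pLB. ALDOA, the main aldolase, which cleaves fructose 1,6-bisphosphate, was at 2.93, 3.51 and 3.42 in pLUM and at 5.67, 5.08 and 4.70 in pLB, or 3.64-fold higher (1.86 ± 0.29, limma adjusted p = 0.001). ALDOC, the brain aldolase, was at -1.55, -1.14 and -0.77 in pLUM and at 1.12, 0.39 and 0.25 in pLB, or 3.33-fold higher (1.74 ± 0.30, limma adjusted p = 0.0017). The arrays of the lines did not overlap for either aldolase. TPI1, which interconverts the triose phosphates, was at 1.47, 1.94 and 1.94 in pLUM and at 3.90, 3.43 and 3.26 in pLB, or 3.35-fold higher (1.75 ± 0.23, limma adjusted p = 0.0005). GAPDH, often used as a reference gene, was at 0.99, 1.59 and 1.56 in pLUM and at 3.95, 3.51 and 3.40 in pLB as the mean of 10 spots. It was 4.73-fold higher in pLB (2.24 ± 0.24, limma adjusted p = 0.00017).

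Lower glycolysis split between the widespread isozymes and the muscle forms. PGK1, which makes the first ATP, was at 1.86, 2.32 and 2.36 in pLUM and at 4.77, 3.97 and 3.31 in pLB over 10 spots, or 3.58-fold higher with a wide spread in pLB (1.84 ± 0.37, limma adjusted p = 0.0036). PGAM1 was at 0.19, 0.62 and 0.95 in pLUM and at 3.23, 2.65 and 1.66 in pLB, or 3.80-fold higher (1.92 ± 0.41, limma adjusted p = 0.0047), and the other probe, whose sequence is given above, was also called higher (1.89 ± 0.19). PGAM2 was at -0.63, -0.40 and -0.59 in pLUM and at -3.88, -3.78 and -3.91 in pLB. It was still well above background on all 6 arrays and was 9.96-fold lower in pLB (-3.32 ± 0.16, limma adjusted p = 3.7e-06), or 4.66-fold lower with normexp.

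Enolase, which makes phosphoenolpyruvate, showed the same arrangement. ENO1 was at 0.31, 0.82 and 1.08 in pLUM and at 3.17, 2.80 and 2.34 in pLB, or 4.09-fold higher (2.03 ± 0.29, limma adjusted p = 0.00064). ENO3 was at 3.35, 3.39 and 3.60 in pLUM and at 1.79, 1.69 and 2.40 in pLB, or 2.80-fold lower (-1.49 ± 0.23, limma adjusted p = 0.00096). ENO2, the neuronal form, overlapped between the lines, from -1.61 to -1.20 in pLUM and from -1.58 to -0.87 in pLB (0.14 ± 0.23, limma adjusted p = 0.62), and its sign turned under some settings. The muscle markers beside these muscle isozymes are given above, none of which was called.

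Pyruvate kinase makes pyruvate and ATP. PKM2, the name the files give the PKM gene, was at 1.23, 1.55 and 1.77 in pLUM and at 4.30, 4.01 and 3.49 in pLB, or 5.34-fold higher (2.42 ± 0.26, limma adjusted p = 0.00016). The name is that of the array design, and the probe was not checked for telling the M1 from the M2 splice form. PKLR, the liver and red cell form, was well above background on 1 pLUM and 2 pLB arrays and did not pass the test (0.38 ± 0.44, limma adjusted p = 0.47), with a sign that turned under some settings.

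The lactate dehydrogenases gave large differences in both directions. LDHA was at 0.27, 1.25 and 1.42 in pLUM and at 4.00, 3.63 and 3.22 in pLB, or 6.21-fold higher (2.63 ± 0.35, limma adjusted p = 0.00046), and the probe placed on chromosome 9 gave 2.47 ± 0.32. LDHB, the heart subunit, was at 1.49, 1.58 and 1.84 in pLUM and at 4.83, 4.68 and 3.94 in pLB. It was 7.20-fold higher (2.85 ± 0.26, limma adjusted p = 8e-05), and its other probe gave 2.99 ± 0.35. LDHD, a mitochondrial enzyme that oxidizes D-lactate in place of L-lactate, was at 3.39, 3.33 and 3.44 in pLUM and at 0.90, 0.85 and 0.74 in pLB. Its arrays lay close together in each line, and it was 5.89-fold lower in pLB (-2.56 ± 0.15, limma adjusted p = 9.5e-06).

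At the entry to the mitochondrion a single kinase gene was called. PDK1, which inhibits pyruvate dehydrogenase, was at -0.45, 0.13 and -0.29 in pLUM and at 1.65, 1.06 and 1.51 in pLB, or 3.05-fold higher (1.61 ± 0.23, limma adjusted p = 0.00076). PDK3 was 1.81-fold higher, past the p alone (0.86 ± 0.22, limma adjusted p = 0.01), with -4.02 to -3.58 in pLUM and -3.23 to -2.64 in pLB. With normexp the PDK3 difference was 0.07 (limma adjusted p = 0.84), and with spike-in scaling the adjusted p was 0.051. PDK2 overlapped between the lines (0.15 ± 0.19, limma adjusted p = 0.52), and PDK4 was well above background on no array. PDHB, the beta subunit of the enzyme, was 1.45-fold higher, past the p alone (0.54 ± 0.20, limma adjusted p = 0.045), but PDHB passed that p under only 6 of 19 alternatives. PDHA1, the alpha subunit, ranged from 3.34 to 3.60 in pLUM and from 3.54 to 3.56 in pLB and did not pass the test (0.08 ± 0.15, limma adjusted p = 0.68). Its other probe, for the transcript ENST00000379805, was at -3.56, -3.36 and -3.65 in pLUM and at -6.28, -5.31 and -5.59 in pLB and was called lower (-2.20 ± 0.27), so that the PDHA1 probes disagreed.

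In the pentose phosphate pathway, TKT, the transketolase of its nonoxidative arm, was called. TKT was at 2.91, 3.04 and 3.31 in pLUM and at 4.86, 4.81 and 4.62 in pLB, or 3.20-fold higher (1.68 ± 0.18, limma adjusted p = 0.00016). TALDO1, the transaldolase of the same arm, lay between 2.79 and 2.88 in pLUM and between 3.53 and 3.90 in pLB, or 1.88-fold higher, past the p alone (0.91 ± 0.17, limma adjusted p = 0.0025). PGD, of the oxidative arm, had the same difference with a wider spread and overlapping arrays, from -1.83 to -0.74 in pLUM and from -0.94 to -0.05 in pLB (0.91 ± 0.35, limma adjusted p = 0.055).

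FBP1 differed more than any other of the 38 tested genes. It was at -0.06, 0.30 and 0.45 on the pLUM arrays and at -7.48, -7.83 and -6.83 on the pLB arrays. FBP1 was well above background on all 3 pLUM arrays and on 0 of 3 pLB arrays, so that its fold is a lower bound, at least 45.9-fold lower in pLB. The bound sets the pLUM mean against a pLB mean in which each array contributes the FBP1 signal or, if that is brighter, the dimmest signal that counted as well above background there. The fitted difference was -7.61 ± 0.29 (limma adjusted p = 1.4e-06), which depends on signals at background. With normexp, whose offset shrinks folds of dim probes, the FBP1 difference was -3.79, or 13.8-fold. The bound of 45.9-fold therefore holds for the processed signals and not under that correction. PCK2, the mitochondrial form of phosphoenolpyruvate carboxykinase, overlapped between the lines (0.39 ± 0.38, limma adjusted p = 0.40), while its other probe, for NM_001018073, was called 3.05-fold higher (1.61 ± 0.25, limma adjusted p = 0.0011).

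**Figure D2:**
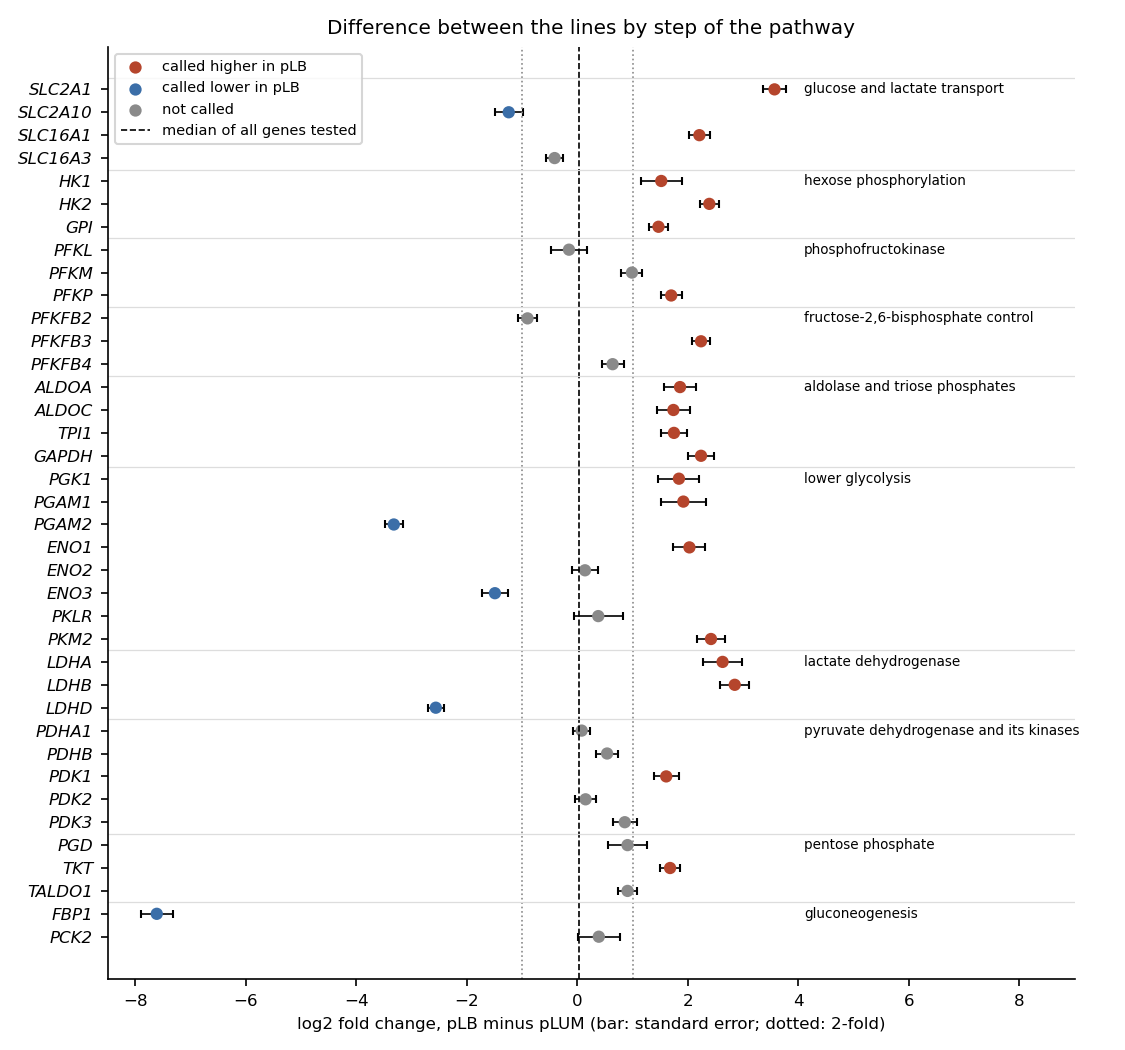
Log2 difference, pLB minus pLUM, of each of the 38 tested genes with its standard error (bars), ordered by step of the pathway, with genes called higher in red, called lower in blue and not called in grey. The genes called higher lie between 1.47 and 3.57, and the 5 called lower reach from SLC2A10 at -1.24 to FBP1 at -7.61, while the dashed line marks the median of all tested genes at 0.04.

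Ratios within an array do not depend on how arrays are scaled, and were taken for 13 pairs of isozymes or related carriers. The arrays of the lines did not overlap for 11 pairs, of which 7 were higher and 4 lower in pLB. Single genes did not overlap in 69.1% of all tested genes, no share over other gene pairs was taken, and nothing is read from the count. For each of these 11, the exact two-sided permutation p was 0.1, the smallest that 3 arrays against 3 allow, and 0.12 after adjustment over the 13 pairs. PGAM2 over PGAM1 fell furthest, by 5.24 on the log2 scale, from -0.83, -1.02 and -1.54 in pLUM to -7.11, -6.42 and -5.57 in pLB, a 37.8-fold difference. ENO3 over ENO1 was 11.5-fold lower in pLB and SLC16A3 over SLC16A1 was 6.16-fold lower. PFKFB3 over PFKFB2 was 8.85-fold higher in pLB, PFKP over PFKL 3.60-fold higher and PDK1 over PDK2 2.75-fold higher. LDHA over LDHB and ALDOC over ALDOA overlapped between the lines, with differences of -0.21 and -0.12 (exact permutation p = 0.5 for each). A ratio shows unequal change of its members and not which of them changed. Ratios still depend on the background correction and were not taken with normexp. With normexp the difference of SLC16A1 was 1.15, against 2.21, and that of PGAM2 was -2.22, against -3.32. The sizes of the ratios that hold these genes are therefore uncertain.

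**Figure D3:**
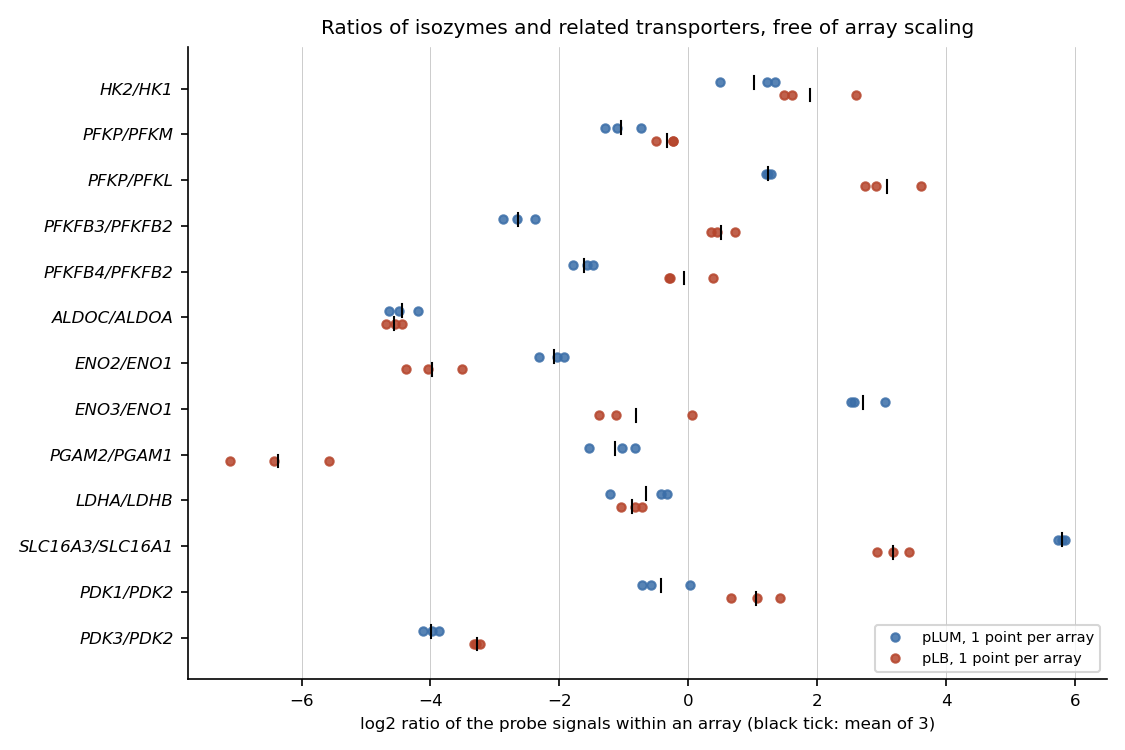
Log2 ratio of the probe signals of 13 gene pairs within each array (horizontal axis), with 1 point for each pLUM array (blue) and pLB array (red) and a black tick at the mean of 3. The points of the lines do not overlap for 11 pairs, with PGAM2/PGAM1 at a mean of -1.13 in pLUM and -6.37 in pLB, whereas LDHA/LDHB and ALDOC/ALDOA overlap.

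Other genes of these pathways were counted in the same way. Of 111 further listed genes, 88 were tested, of which 27 were higher and 13 lower in pLB, with a median of 0.24. The 45.5% called are close to the 45.7% of all genes. Of 7 further glycolytic genes tested, only PGAM4 was called, 3.74-fold higher (1.90 ± 0.21, limma adjusted p = 0.00021), and as a near-identical copy of PGAM1 its value is uncertain. None of 9 further pentose phosphate genes was called, and 4, or 44.4%, passed the p alone, where 63.4% of all genes did. None of 3 further gluconeogenic genes was called, and 2 were lower past the p alone, as were 31.0% of all genes. TIGAR, a fructose bisphosphatase listed as C12orf5, was not tested, being well above background on 0 pLUM and 2 pLB arrays, with a bound of at least 1.02-fold higher in pLB.

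Of 17 further transport genes tested, 10 were higher and 4 lower, or 82.4% called, where 45.7% of all tested genes were. The list holds, beside carriers, a regulator of a carrier gene, which was not called, and BSG, which is among those higher. The shares were 58.8% higher and 23.5% lower, against 22.7% and 23.0% of all genes. SLC2A9, a urate and hexose carrier, was well above background on no pLUM array and at 0.30, -0.03 and -0.49 in pLB, at least 39.6-fold higher on the processed signals (limma adjusted p = 2.9e-06) and 5.46-fold higher with normexp. SLC2A5, the fructose carrier GLUT5, was 13.7-fold higher (3.77 ± 0.22, limma adjusted p = 9.1e-06), but 3.27-fold higher with normexp and 4.50-fold higher as the mean of its 2 probes. BSG, or basigin, the chaperone that brings MCT1 and MCT4 to the membrane, was at 0.29, 0.33 and 0.63 in pLUM and at 3.51, 3.27 and 2.83 in pLB, or 6.90-fold higher (2.79 ± 0.22, limma adjusted p = 3.9e-05). SLC16A7, or MCT2, was well above background on no pLUM array and at least 3.77-fold higher in pLB. SLC16A10 was 5.63-fold higher and SLC16A9 5.20-fold higher. SLC16A14 and SLC2A13 were called lower, but were near background in pLB, with 2 and 1 of 3 pLB arrays well above it, so that their folds are uncertain. The difference of SLC16A14 was -3.56, or -1.97 with normexp. That of SLC2A13 was -2.76, or -1.41 with a floor on dim signals and -1.02 with normexp. SLC16A9 was 3.07-fold higher with normexp. With normexp background correction SLC16A7 and SLC16A10 were no longer called, at 0.15 and 0.69.

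Of 14 glycogen genes tested, 6 were higher and 2 lower, or 42.9% and 14.3%, where 22.7% and 23.0% of all tested genes were. PYGL, the liver glycogen phosphorylase, which releases glucose 1-phosphate, was at -2.30, -2.41 and -2.59 in pLUM and at 2.61, 2.52 and 2.51 in pLB. It was 31.5-fold higher (4.98 ± 0.16, limma adjusted p = 7.8e-07), with very little spread in either line, or 17.6-fold higher with normexp. PGM2L1, which makes glucose 1,6-bisphosphate, was called higher (4.50 ± 0.45, limma adjusted p = 0.00012) with 1 of 3 pLUM arrays well above background, so that its fold is uncertain. It was 14.6-fold with a floor on dim signals and 2.91-fold with normexp. Genes of the serine and hexosamine branches were listed together with glycerol 3-phosphate dehydrogenases. Of these 12 genes, 3 were higher and 2 lower, or 41.7% called, close to the 45.7% of all genes. PHGDH, the first enzyme of serine synthesis, was 2.39-fold higher (1.26 ± 0.27, limma adjusted p = 0.0055), and GPD1L, a glycerol 3-phosphate dehydrogenase-like enzyme, was 6.44-fold lower (-2.69 ± 0.22, limma adjusted p = 4.2e-05).

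Of 12 further genes listed with pyruvate entry, 2 were higher and 4 lower. A propionyl-CoA carboxylase gene, whose enzyme does not act on pyruvate, is among those lower. The 50% called are close to the 45.7% of all genes. Of 14 regulators, 5 were higher and 1 was lower, or 42.9% called, also close to that share. MYC, a transcription factor known to bind glycolytic genes, was at 0.33, 0.54 and 0.82 in pLUM and at 3.25, 3.33 and 2.71 in pLB, or 5.79-fold higher (2.53 ± 0.23, limma adjusted p = 7.4e-05). EGLN3, a prolyl hydroxylase that marks hypoxia-inducible factor for destruction and is itself induced in hypoxia, was 10.4-fold higher (3.38 ± 0.26, limma adjusted p = 3.5e-05), but 2.41-fold higher with normexp (limma adjusted p = 0.022). HIF1A overlapped between the lines, from 0.08 to 0.71 in pLUM and from 0.61 to 0.84 in pLB (0.35 ± 0.20, limma adjusted p = 0.18), while the mean of its 2 probes gave 0.69 (limma adjusted p = 0.016), under 2-fold. The regulators called higher also included EPAS1, 3.09-fold higher (1.63 ± 0.22, limma adjusted p = 0.00056), and EGLN1, 3.19-fold higher (1.67 ± 0.20, limma adjusted p = 0.00028). TXNIP, which restrains glucose uptake, did not pass the test (0.42 ± 0.18, limma adjusted p = 0.079).

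**Figure D4:**
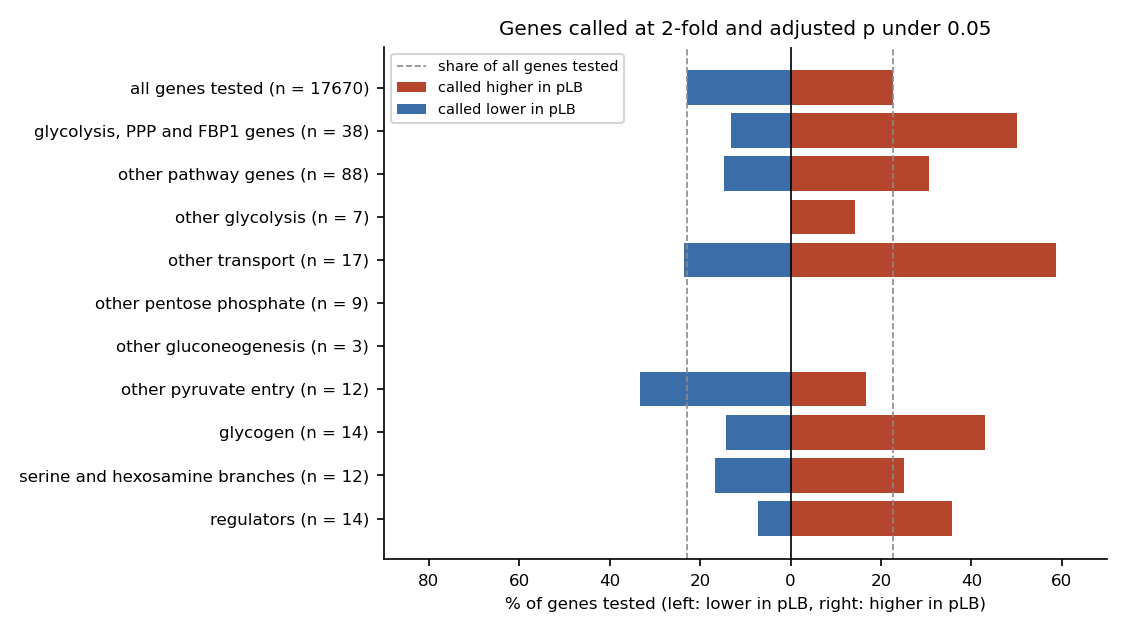
Percentage of tested genes called higher in pLB (red, right of 0) and lower in pLB (blue, left of 0) for all genes, the 38 tested genes of glycolysis, the pentose phosphate pathway (PPP) and FBP1, and the further lists, with n the number tested. Dashed lines mark the shares of all genes, 22.7% and 23.0%, and the 38 genes reach 50% higher and 13.2% lower.

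The directions of the called genes held over the ways of processing that were tried. All 24 kept their sign, and 22 were called under every alternative fit that gave them a test. The exceptions were HK1, which was not called by the methods' t-test or without replicate 1 of both lines, and SLC2A10 with spike-in scaling. FBP1 ranged from -7.89 to -3.79 and SLC2A1 from 1.96 to 3.89. Scaled to spike-in probes, the median of all genes moved from 0.04 to 0.29, and the share of higher genes among those called went from 49.7% to 60.1%. The median of the 38 genes lay 1.19 above that of all genes before and after. Such scaling moves all genes of an array by the same amount, so that this gap could not change and is no check.

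**Figure D5:**
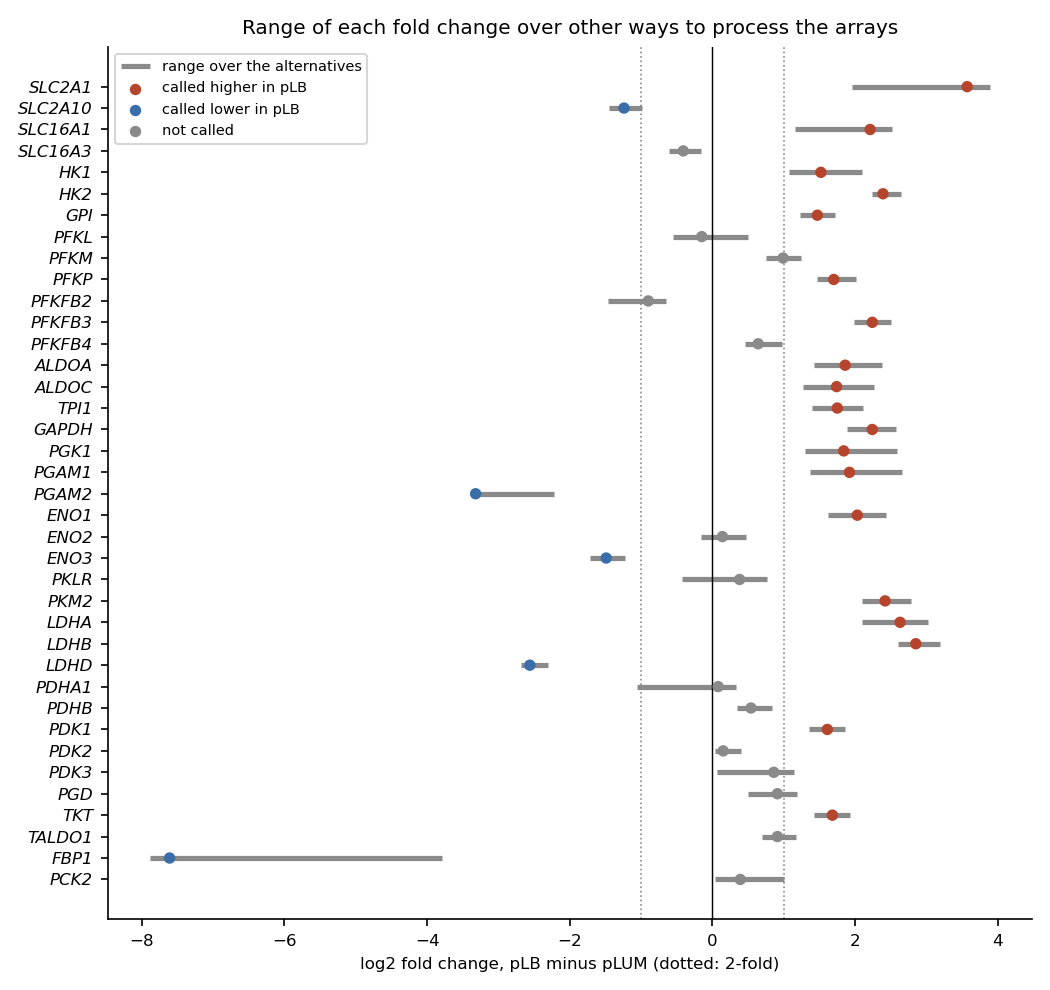
Log2 difference, pLB minus pLUM, of the 38 tested genes (points, colored by call) with its range over the alternative settings (grey bars), dotted lines at 2-fold. FBP1 spans -7.89 to -3.79, the 24 called genes stay on their side of 0, and PFKL, ENO2, PKLR and PDHA1 cross it.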

How the data were processed

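RNA of 3 pLUM and 3 pLB sorts was hybridized with Cy3 to Agilent 4x44K arrays. The authors deposited Agilent Feature Extraction 10.10.1.1 output, an intensity per spot that was background-corrected and detrended within its array and not normalized between arrays, with hg19 positions. Partek is named in the submitters' processing notes without a role. Each deposited intensity was divided by the 75th percentile of its array and put on a log2 scale, without spots flagged as outliers, and repeated spots were averaged. The comparison of pLB with pLUM used limma 3.58.1 under R 4.3.3 (lmFit, eBayes, Benjamini-Hochberg over 23105 of 34127 probes), and the fit was tested on simulated data. Each array had 21285 to 22775 probes well above background, and no spot of the 43 genes was saturated. The number of arrays limits the precision. Of the 54 probes, 51 matched a RefSeq accession, and PKM2 is now PKM. Promoter letters are those of GRCh38.p14 RefSeq.

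The 43 genes and all lists were chosen with earlier results of these data known. Named are all 43 genes and, of the further genes, those called at 4-fold or more with TIGAR, PHGDH, HIF1A, MYC and TXNIP, and another gene of this rule is not reported here. PGAM4, EPAS1, EGLN1, MPC1 and MPC2 were named after their values were seen. Alternatives were other background corrections, scalings, filters, thresholds, probe rules, blocks and tests, and leaving out arrays.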

Additional observations from a re-analysis of the deposited data

How the results depend on the processing

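Over the alternatives, 18 to 24 of the 43 genes were higher in pLB and 4 to 7 lower, against 19 and 5. Leaving out single arrays, the count of genes higher was 19 to 23 and of genes lower 5 to 5, the count of further pathway genes higher was 25 to 31 and lower 14 to 15, and over all genes 3955 to 4107 were higher and 3827 to 4536 lower. With no fold threshold, other pathway genes lower in pLB came to 21, against 13. With normexp background correction, 2578 of all genes were higher in pLB, against 4016. With the mean of its probes, PDHA1 was reversed to -1.06 (limma adjusted p = 0.0015), since 1 of its probes was called lower. HK1 was not called by the methods' t-test or without replicate 1 of both lines, a setting chosen after seeing the data, and SLC2A10 was not called with spike-in scaling (-0.99). The cause was not tested. Slide as a block gave 22 higher and 6 lower, a fit in which only slide 1, with pLB replicate 1, holds both lines. Replicate numbers did not pair the arrays, as same-numbered arrays correlated at -0.27, -0.09 and -0.22 in their deviations from the line means. With the replicate block, 19 genes were higher and 5 lower, and no call of the 38 genes changed. Without pLB replicate 1 the median difference of the 38 genes was 1.05, against 1.23. Dim signal limits, among others, FBP1, PGAM2, SLC16A1, PDK3, PKLR, SLC2A5, SLC2A9, SLC2A13, SLC16A7, SLC16A10, SLC16A14, PGM2L1, EGLN3 and the genes that were not tested. Their values with normexp stand beside their results or, for PKLR, came to -0.43.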

Other observations

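The mean log2 signal of the 19 genes called higher was 0.73 on pLUM replicate 1, 1.07 on replicate 2 and 1.19 on replicate 3. In pLB it was 3.46 on replicate 1, 3.04 on replicate 2 and 2.76 on replicate 3. pLUM replicate 1 was the lowest pLUM array for 16 of these genes with normexp background correction, 18 with quantile normalization, 19 with median scaling and 15 with spike-in scaling. pLB replicate 1 was the highest pLB array for 18 with quantile normalization and for 19 with each of the other 3 scalings or corrections. It was also the only pLB array on slide 1, and the part of the slide was not tested for these orders.

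MPC1, a subunit of the mitochondrial pyruvate carrier listed as BRP44L, was chosen after its values were seen. It was at 1.98, 1.78 and 1.46 in pLUM and at -0.37, -0.04 and -0.16 in pLB, or 3.82-fold lower (-1.93 ± 0.20, limma adjusted p = 0.00013). The value is that of the brighter of its 2 tested probes. MPC2, listed as BRP44, overlapped between the lines (-0.1 ± 0.28, limma adjusted p = 0.78). Of the 12 further genes listed with pyruvate entry, which hold both, 2 were higher and 4 lower, or 50% called against 45.7% of all genes.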
